A study of Homo sapiens with 6 samples.

Results

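Sterol synthesis and its control were followed through 32 genes, out of 38557 genes listed, in human cardiomyocytes that were differentiated from the iPSC (induced pluripotent stem cell) line WTC11. The genes were chosen by name: 19 enzymes of the mevalonate and cholesterol pathways, 3 genes of sterol movement, 5 genes of the SREBP system and 5 genes of the LXR system. Counts were deposited for 6 libraries of RNA sequencing, 3 from cells in RPMI plus B27 (a serum-free supplement) and 3 from cells in DMEM plus fatty acids. All were labelled WT and came from 1 line, with biological replicates numbered 1 to 3 in each medium. The sterol, lipid and serum content of the media and the length of culture are not given in the labels. Of the 32 genes, 31 passed the filter on low counts, and NPC1L1 did not.

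Cells make cholesterol from acetyl-CoA through mevalonate, isoprenoid diphosphates, squalene and lanosterol. When sterols run low in the endoplasmic reticulum, SCAP carries the membrane-bound SREBP factors to the Golgi, where proteases release the part that enters the nucleus and activates the genes of this pathway. INSIG proteins hold SCAP back when sterols are plentiful, and oxysterols then activate the LXR nuclear receptors, whose targets include the cholesterol exporters ABCA1 and ABCG1.

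SREBP factors are known to bind sterol response elements next to sites for the factor NF-Y, whose core is the CCAAT box, so promoters of 6 members whose values are given in full or that stand for the enzymes are shown first. The windows are from RefSeq (GRCh38.p14) and run from 250 bases before to 50 bases after the annotated start, on the strand of the gene. Each gene was represented by the first window listed for it, and 28 of the 32 members were matched. Capitals mark CCAAT on either strand (ATTGG when read on the printed strand) and, in SREBF2, the 10 bases of the classical sterol response element, which was searched on both strands.
SREBF2, chr22:41832855-41833154, plus strand: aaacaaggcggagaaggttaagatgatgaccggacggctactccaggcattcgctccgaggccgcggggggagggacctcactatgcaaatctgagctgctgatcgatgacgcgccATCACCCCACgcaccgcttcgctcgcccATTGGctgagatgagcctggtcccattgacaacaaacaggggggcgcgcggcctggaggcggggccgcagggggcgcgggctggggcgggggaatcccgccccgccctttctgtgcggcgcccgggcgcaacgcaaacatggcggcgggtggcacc
HMGCS1, chr5:43313363-43313662, minus strand: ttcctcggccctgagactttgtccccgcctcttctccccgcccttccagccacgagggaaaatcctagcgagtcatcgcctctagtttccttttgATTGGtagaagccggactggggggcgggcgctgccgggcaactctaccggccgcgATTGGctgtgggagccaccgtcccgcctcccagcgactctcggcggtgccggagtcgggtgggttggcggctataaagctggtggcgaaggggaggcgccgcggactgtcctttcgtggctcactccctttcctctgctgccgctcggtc
MVK, chr12:109573544-109573843, plus strand: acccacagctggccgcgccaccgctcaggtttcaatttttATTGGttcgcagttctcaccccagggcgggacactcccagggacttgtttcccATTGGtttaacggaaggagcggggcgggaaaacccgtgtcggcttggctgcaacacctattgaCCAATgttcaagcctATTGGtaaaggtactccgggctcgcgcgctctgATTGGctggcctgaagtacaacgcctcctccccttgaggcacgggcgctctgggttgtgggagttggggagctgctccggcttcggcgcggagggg
NSDHL, chrX:152830813-152831112, plus strand: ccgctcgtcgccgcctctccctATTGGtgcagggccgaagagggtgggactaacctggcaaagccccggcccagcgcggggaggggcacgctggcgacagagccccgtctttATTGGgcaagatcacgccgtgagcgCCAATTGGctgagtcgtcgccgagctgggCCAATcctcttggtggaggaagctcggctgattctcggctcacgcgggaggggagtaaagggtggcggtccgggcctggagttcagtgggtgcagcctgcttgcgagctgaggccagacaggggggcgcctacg
INSIG1, chr7:155297628-155297927, plus strand: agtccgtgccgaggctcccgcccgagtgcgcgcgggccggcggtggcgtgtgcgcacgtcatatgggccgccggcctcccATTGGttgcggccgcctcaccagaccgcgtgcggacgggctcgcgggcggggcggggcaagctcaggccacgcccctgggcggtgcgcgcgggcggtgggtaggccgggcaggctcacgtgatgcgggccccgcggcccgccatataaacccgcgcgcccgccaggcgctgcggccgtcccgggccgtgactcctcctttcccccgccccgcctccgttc
INSIG2, chr2:118088221-118088520, plus strand: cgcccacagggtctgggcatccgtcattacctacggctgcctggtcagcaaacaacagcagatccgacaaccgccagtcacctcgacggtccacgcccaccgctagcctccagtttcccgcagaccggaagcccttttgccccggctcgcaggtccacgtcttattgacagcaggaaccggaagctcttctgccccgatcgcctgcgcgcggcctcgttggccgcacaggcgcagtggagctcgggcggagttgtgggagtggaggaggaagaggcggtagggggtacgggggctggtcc

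The SREBF2 window held the exact classical element, followed 18 bases later by a CCAAT box on the opposite strand. That element was found in 13 of 27305 promoters of the same length (0.0476%) and in no other member. A looser form of it, TCACNCCAC, was likewise found among the members in SREBF2 only, where it overlaps the exact one, against 1.15% of all promoters. A CCAAT box stood in the windows of 12 of the 16 matched synthesis enzymes (75.0%), against 35.7% of all promoters, and 9 of the 16 (56.2%) held 2 or more, against 11.3%. MVK and NSDHL held 5 each, and a pair of those in NSDHL overlapped. INSIG1 held 1 and INSIG2 none. Among the 4 matched LXR genes, MYLIP held CCAAT boxes. The enzyme windows differed from all promoters in other letters too: GGGCGG, a GC box, stood in 14 of the 16 (87.5%), against 44.6%. Holding at least 1 copy more often than all promoters is therefore not particular to the CCAAT box. For 2 or more GC boxes the shares lay closer together, at 7 of the 16 (43.8%) against 26.7%. The difference between the 2 motifs was not tested. These are matches of letters in a window and show no binding.

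Markers of the labelled cell type were high: the summed level of 10 cardiomyocyte genes was 20412 to 31952 CPM (counts relative to library size, scaled by TMM) in every library, with the lowest value in DMEM plus fatty acids replicate 3 and at least 27293 CPM in the other 5. None of the 10 passed an adjusted p of 0.05 between media by edgeR. With the replicate number as a term 3 did (MYH7, ACTN2 and NPPA), all lower in DMEM plus fatty acids, against 3.42% of all genes. MYH6 was higher there without overlap, as for 12.8% of all genes. Of 5 pluripotency genes, POU5F1, NANOG, LIN28A and DPPA4 were below 1 CPM throughout, while TDGF1 was at 14.6 to 61.4 CPM. Of 6 endothelial genes, PECAM1, CDH5 and VWF were below 1 CPM throughout. KDR was at 27.5 to 238.9 CPM in RPMI plus B27 and at 114.5 to 463.2 CPM in DMEM plus fatty acids (adjusted p 0.434 by edgeR and 0.0245 with the replicate number as a term). The other 2 went the other way. EGFL7 was at 9.77 to 25.5 CPM in RPMI plus B27 and at 4.48 to 7.62 CPM in DMEM plus fatty acids (adjusted p 0.176 by edgeR). TEK was at 0.48 to 1.13 CPM and at 0.10 to 0.26 CPM (adjusted p 0.0960 by edgeR). The summed level of 10 hepatic and endoderm markers was 15.8 to 314.3 CPM in RPMI plus B27, highest in replicate 3, and 7.75 to 47.7 CPM in DMEM plus fatty acids. Of the 6 that were tested, 0 passed by edgeR and 3 passed as lower with the replicate number as a term. The summed level of 10 fibroblast and stromal markers was 4338 to 8406 CPM in RPMI plus B27 and 758 to 1958 CPM in DMEM plus fatty acids, with the lowest value in DMEM plus fatty acids replicate 1. Of these 10, 6 passed as lower in DMEM plus fatty acids by edgeR and 8 with the replicate number as a term, against 1.07% and 3.42% of all genes. DDR2 alone had a higher mean there. The libraries held 23232324 to 31035389 gene counts, the fewest in DMEM plus fatty acids replicate 1. In bulk RNA, fewer cells of a type and less RNA per cell cannot be told apart. The part of these markers and of depth in the results below was not tested.

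No member of the sterol and SREBP system passed an adjusted p of 0.05 between media (quasi-likelihood test of edgeR, adjusted over all genes tested by Benjamini-Hochberg), against 219 of the 16107 genes tested, or 1.36% (0.292% were higher and 1.07% lower with fatty acids). At an unadjusted p under 0.05 there were 7 of the 31 members, against 17.7% of all genes, and 6 of them had higher values in DMEM plus fatty acids, against 7.7% of all genes. DESeq2's Wald test called 2 of the 31 members, MVK and INSIG2, against 7.71% of the genes it tested. Of the 31 fitted fold changes 30 were above 0, INSIG2 being the exception, against 51% of all genes. Their median log2 fold change (DMEM plus fatty acids relative to RPMI plus B27) was 0.69, and that of all genes was 0.01. The members' median rested largely on 1 library: without DMEM plus fatty acids replicate 1 it was 0.08, with 20 of 31 above 0, and without replicate 1 of both media it was 0.15. With all libraries and the replicate number as a term it was 0.46.

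The ratio between media differed from one replicate pair to the next. Replicate numbers were treated as pairing the libraries, because same-numbered libraries deviated together from their group means. In pair 1 the members' median log2 ratio was 1.34, with 29 of 31 above 0 and 20 at least 2-fold higher in DMEM plus fatty acids, against 6.19% of all genes. In pair 2 the median was 0.36, with 29 of 31 above 0 and none at least 2-fold higher, against 2.52% of all genes. MVK lay at that limit in pair 2: it was 2.00-fold higher by CPM, and its log2 ratio was 0.999 with the prior count of 2. In pair 3 the median was -0.19, with 8 of 31 above 0, and ABCA1 alone was at least 2-fold higher, against 3.87% of all genes. The medians of all genes were 0.01, 0.00 and 0.02 in pairs 1, 2 and 3. Pair 1 had the largest ratio for 25 of the 31 members, against 39.3% of all genes. With 1 library per medium in a pair, the difference between pairs has no replicate check.

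**Figure D1:**
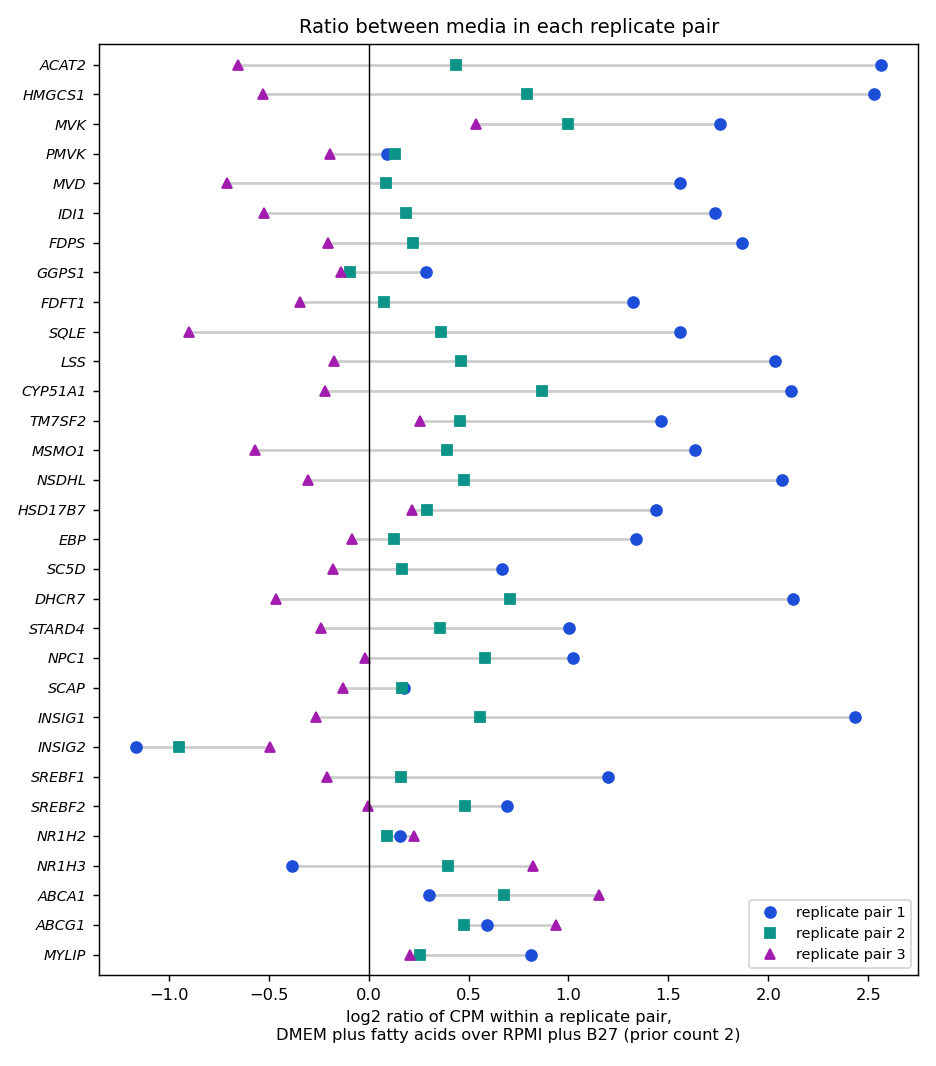
Log2 ratio of CPM, DMEM plus fatty acids relative to RPMI plus B27, within each replicate pair (x axis) for the 31 tested genes (y axis), with a prior count of 2; grey lines join the 3 pairs. Pair 1 is the farthest right for 25 of the 31 genes, MYLIP of the LXR system among them. ABCA1, ABCG1, NR1H3, NR1H2 and INSIG2 are farthest right in pair 3, and INSIG2 lies left of 0 in all 3 pairs.

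For 15 of the 19 enzymes and 21 of the 31 members, against 42.1% of all genes, the fold between the highest and the lowest library was larger in DMEM plus fatty acids than in RPMI plus B27. MVK (2.19-fold in RPMI plus B27), TM7SF2 (1.70-fold), INSIG2 (1.93-fold) and ABCG1 (2.74-fold) were among the 10 with the larger fold in RPMI plus B27. The summed level of the 19 synthesis enzymes was 1604, 1521 and 1367 CPM in RPMI plus B27 replicates 1, 2 and 3. In DMEM plus fatty acids it was 4984, 2023 and 1133 CPM, so replicate 1 stood above and replicate 3 below every RPMI plus B27 library. The highest library exceeded the lowest by a median of 1.26-fold over the 19 enzymes in RPMI plus B27 and by 4.28-fold in DMEM plus fatty acids. For all genes tested these medians were 1.41-fold and 1.33-fold.

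Among the 19 enzymes, 17 were highest in replicate 1 and lowest in replicate 3 of the DMEM plus fatty acids libraries, a pattern of 21% of all genes. Replicate 1 was the highest of all 6 libraries for 17 enzymes, against 19.5% of all genes, and for 14 it was at least 2-fold above both other DMEM plus fatty acids libraries, against 1.86%. Replicate 1 was above all 3 RPMI plus B27 libraries for 18 of the 19 enzymes (30.1% of all genes), and replicate 2 for 14 (28.1%). Replicate 3 was below all 3 of them for 13 of the 19 (26.5% of all genes). For these same 13 enzymes replicate 1 was the highest and replicate 3 the lowest of all 6 libraries, which held for 2.63% of all genes.

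**Figure D2:**
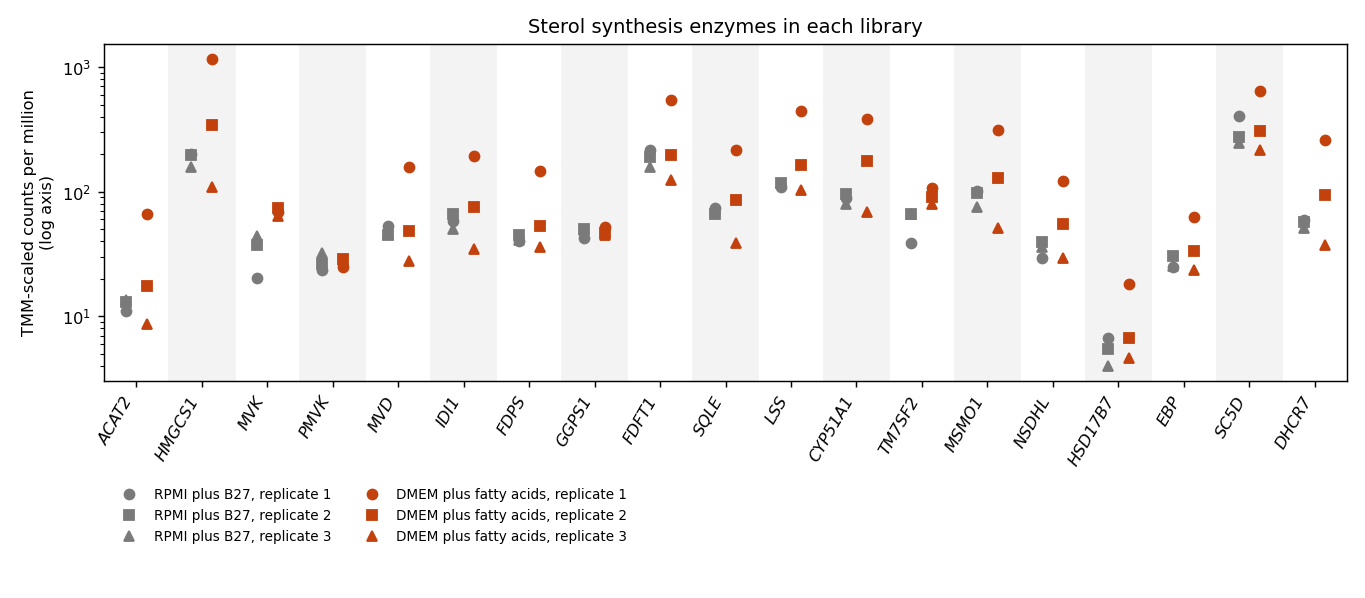
TMM-scaled CPM (log axis) of the 19 synthesis enzymes in each of the 6 libraries, in pathway order; grey is RPMI plus B27, orange is DMEM plus fatty acids, and the symbol gives the replicate number. The orange circle of replicate 1 lies above all grey symbols for every enzyme but PMVK, while MVK and TM7SF2 have all 3 orange symbols above the grey ones.

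Among the enzymes from acetyl-CoA to farnesyl diphosphate, HMGCS1, which condenses acetoacetyl-CoA with acetyl-CoA, was at 199.7, 196.8 and 158.8 CPM in RPMI plus B27 and at 1154.3, 340.4 and 109.9 CPM in DMEM plus fatty acids. Its groups overlapped, since DMEM plus fatty acids replicate 3 was the lowest of the 6 libraries. The log2 fold change was 1.53 ± 0.72 (SE), with an adjusted p of 0.320 (edgeR). It was 0.92 with a replicate block (the replicate number as a term of the fit) and 0.28 without DMEM plus fatty acids replicate 1. ACAT2, the cytosolic enzyme that makes acetoacetyl-CoA, was at 11.0, 12.9 and 13.6 CPM in RPMI plus B27 and at 65.7, 17.6 and 8.60 CPM in DMEM plus fatty acids. It showed the same order of DMEM libraries as HMGCS1 (1.29 ± 0.66, adjusted p 0.361 by edgeR). In GENCODE v29, 52.3% of the exon bases of ACAT2 overlap exons on the opposite strand, of TCP1 among others, so its counts are uncertain where strand was not used in counting.

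MVK, or mevalonate kinase, differed in pattern from its neighbours in the pathway. It was at 20.2, 37.1 and 44.3 CPM in RPMI plus B27 and at 68.6, 74.2 and 64.3 CPM in DMEM plus fatty acids. All 3 DMEM plus fatty acids libraries were above all 3 RPMI plus B27 libraries, and the 3 DMEM values lay within 1.16-fold of each other. The log2 fold change was 1.03 ± 0.27 with an adjusted p of 0.116 by edgeR, 0.0552 with the replicate block and 0.0124 by DESeq2 (0.0124 to 0.538 over 15 alternatives). DESeq2 called 7.71% of the genes it tested. The direction of MVK was kept in all 15 alternatives, and its fold change was 1.09 with the replicate block and 1.03 without DMEM plus fatty acids replicate 1. In pairs 1, 2 and 3 its log2 ratio was 1.76, 1.0 and 0.54. Of the exon bases of MVK, whose window above held 5 CCAAT boxes, 4.72% overlap MMAB on the opposite strand.

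The other enzymes of this segment fell into 2 kinds. MVD (mevalonate diphosphate decarboxylase), IDI1 (isopentenyl diphosphate isomerase) and FDPS (farnesyl diphosphate synthase) had pair 1 log2 ratios of 1.56 to 1.87, pair 2 ratios of 0.08 to 0.22 and pair 3 ratios of -0.71 to -0.20. Their fitted log2 fold changes were 0.69 ± 0.56, 0.80 ± 0.54 and 0.90 ± 0.47. PMVK (phosphomevalonate kinase) and GGPS1 (geranylgeranyl diphosphate synthase) varied little between media or replicates, with fitted values of 0.00 ± 0.16 and 0.02 ± 0.12 and pair ratios between -0.19 and 0.29. The exons of GGPS1 overlap those of TBCE and ARID4B over 41.0% of their bases, which limits its count.

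From squalene onward, all 11 enzymes had a fitted fold change above 0, from 0.34 ± 0.40 for SC5D to 1.25 ± 0.53 for CYP51A1. CYP51A1, the lanosterol demethylase, was at 89.2, 96.3 and 80.3 CPM in RPMI plus B27 and at 385.5, 175.8 and 69.1 CPM in DMEM plus fatty acids. LSS, which closes squalene epoxide to lanosterol, was at 108.7, 118.3 and 117.1 CPM in RPMI plus B27 and at 445.3, 162.9 and 104.0 CPM in DMEM plus fatty acids. In both genes the RPMI plus B27 libraries were close together, and DMEM plus fatty acids replicates 1 and 2 were above and replicate 3 below all of them. The adjusted p was 0.278 for CYP51A1 and 0.312 for LSS (1.05 ± 0.48) by edgeR. Most exon bases of CYP51A1 (83.2%) overlap other annotated genes in GENCODE v29, so part of its reads may have been set aside as ambiguous.

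TM7SF2, a sterol C14 reductase, was at 39.0, 65.8 and 66.1 CPM in RPMI plus B27 and at 107.7, 90.3 and 79.2 CPM in DMEM plus fatty acids. Its groups did not overlap (0.70 ± 0.22, adjusted p 0.175 by edgeR, 0.0846 to 0.550 over 15 alternatives). TM7SF2 and MVK were the only enzymes of the 19 whose groups did not overlap, and 12.8% of all genes tested were likewise higher without overlap. In both genes RPMI plus B27 replicate 1 was the lowest library of the 6.

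The remaining enzymes from squalene onward shared with HMGCS1 the order of the 3 DMEM plus fatty acids libraries, replicate 1 highest and replicate 3 lowest. FDFT1 (squalene synthase), SQLE (squalene epoxidase), MSMO1 (sterol C4 methyl oxidase), NSDHL (sterol C4 decarboxylase), EBP (sterol isomerase), SC5D (sterol C5 desaturase) and DHCR7 (7-dehydrocholesterol reductase) had pair 1 log2 ratios of 0.67 to 2.12. In pair 2 these 7 ran from 0.07 to 0.71, and in pair 3 from -0.90 for SQLE to -0.08 for EBP. HSD17B7, a sterol ketone reductase, was low (3.99 to 18.2 CPM over the 6 libraries) and was above 0 in all 3 pairs, at 1.44, 0.29 and 0.22. HSD17B7 has 2 annotated pseudogenes named after it, FDPS has 8 and CYP51A1 has 3, so reads of these 3 genes may be undercounted.

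Per kilobase of annotated exon, SC5D had the highest mean level in RPMI plus B27 among the 32 members, at 55.4 ± 15.5 CPM per kb (SD, n = 3), followed by SREBF2 at 48.0 ± 3.65 and HMGCS1 at 39.4 ± 4.86. The first 2 did not differ beyond their spread. In DMEM plus fatty acids replicate 1 HMGCS1 was at 245.5 CPM per kb, above SC5D at 116.0, MSMO1 at 108.8 and CYP51A1 at 107.6. ACAT2 was among the lowest enzymes per kb, with 2.91 ± 0.31 CPM per kb in RPMI plus B27, and HSD17B7 was lower still at 1.12 ± 0.28. Exon lengths are those of GENCODE v29, which may not be the annotation used for counting.

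Over the DMEM plus fatty acids libraries SREBF2 spread 1.87-fold and SREBF1 5.62-fold, against a median of 4.28-fold over the 19 enzymes. SREBF2, which encodes the SREBP form that mainly drives sterol genes, was at 394.1, 352.1 and 342.1 CPM in RPMI plus B27 and at 637.0, 491.5 and 341.1 CPM in DMEM plus fatty acids. Replicates 1 and 2 of DMEM plus fatty acids were above the RPMI plus B27 libraries, and replicate 3 lay just below the lowest of them (0.43 ± 0.22, adjusted p 0.363 by edgeR). SREBF1, whose products mainly drive fatty acid genes, was at 57.0, 32.7 and 26.9 CPM in RPMI plus B27 and at 130.8, 36.5 and 23.3 CPM in DMEM plus fatty acids. Replicate 1 was the highest and replicate 3 the lowest library in each medium (0.71 ± 0.62, adjusted p 0.597 by edgeR). SCAP, the escort of SREBP, was at 100.3 to 115.9 CPM over all 6 libraries, with a log2 fold change of 0.07 ± 0.11.

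INSIG1 and INSIG2, the pair of proteins that retain SCAP in the endoplasmic reticulum, had fold changes of opposite sign. INSIG1, itself a well-known SREBP target, was at 47.6, 31.7 and 18.8 CPM in RPMI plus B27 and at 257.6, 46.8 and 15.7 CPM in DMEM plus fatty acids. It had the widest spread of the members within DMEM plus fatty acids: replicate 1 was 5.51-fold above replicate 2 and 16.5-fold above replicate 3. The log2 fold change was 1.70 ± 0.91 with an adjusted p of 0.380 by edgeR, and it was -0.066 without DMEM plus fatty acids replicate 1.

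INSIG2 was at 70.6, 56.7 and 36.7 CPM in RPMI plus B27 and at 31.5, 29.4 and 26.1 CPM in DMEM plus fatty acids. All 3 DMEM plus fatty acids libraries were below all 3 RPMI plus B27 libraries, as for 12.8% of all genes, and they lay within 1.21-fold of each other. The log2 ratio was -1.16, -0.95 and -0.49 in pairs 1, 2 and 3, and the log2 fold change was -0.92 ± 0.24 with an adjusted p of 0.113 by edgeR. With the replicate block the adjusted p was 0.0364, so INSIG2 was the 1 member that passed in that fit, which called 4.78% of all genes and 3.42% as lower. It also passed by DESeq2 (0.0127), which called 7.71% of the genes it tested, and without RPMI plus B27 replicate 3 (0.0442), which called 0.79%. Its adjusted p ran from 0.0127 to 0.553 over 15 alternatives, with the direction kept in all of them. The difference between the fold changes of the INSIG genes was not tested. The INSIG2 window printed above had no CCAAT box, while 35.7% of all promoters held at least 1, so its absence is common. A link between CCAAT boxes and these fold changes was not tested.

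**Figure D3:**
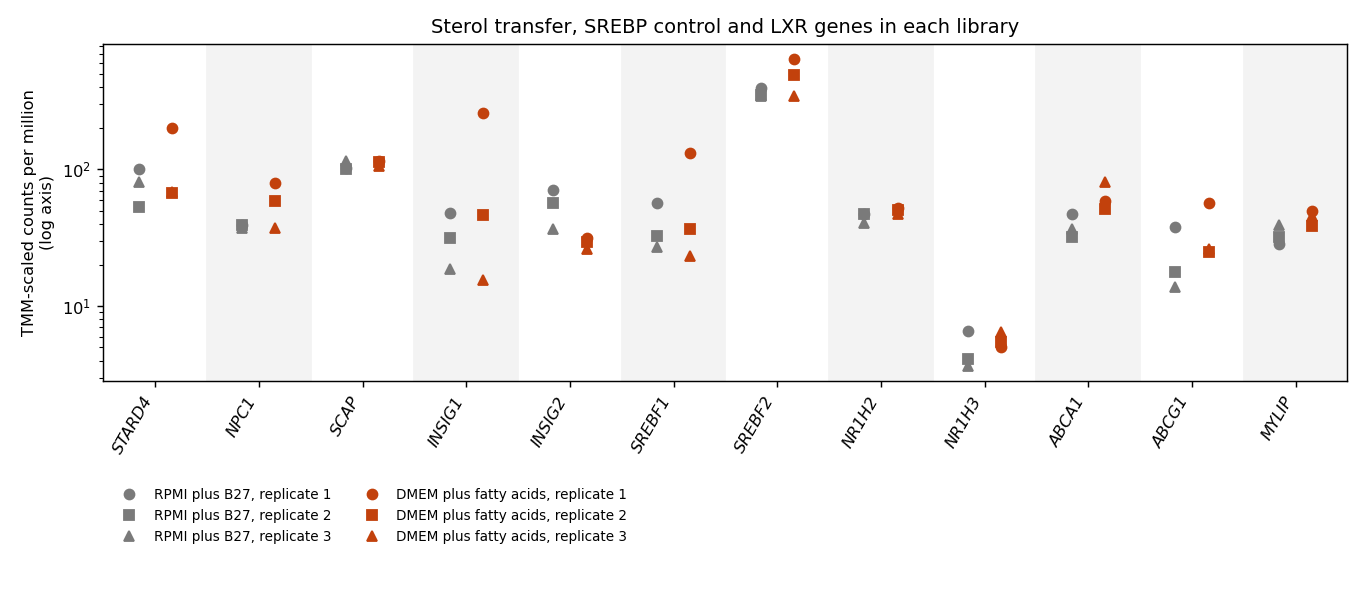
TMM-scaled CPM (log axis) of the 12 tested genes of sterol movement, SREBP control and the LXR system in each of the 6 libraries, coloured and shaped as for the enzymes. INSIG1 spreads from 15.7 to 257.6 CPM within DMEM plus fatty acids, INSIG2 is lower there without overlap, and ABCA1 is higher without overlap.

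Both tested genes of sterol movement were highest in DMEM plus fatty acids replicate 1. NPC1, which exports cholesterol from late endosomes, was at 39.3, 38.9 and 37.6 CPM in RPMI plus B27 and at 79.9, 58.3 and 37.1 CPM in DMEM plus fatty acids. Replicates 1 and 2 of DMEM plus fatty acids were above, and replicate 3 just below, the narrow range of RPMI plus B27 (0.60 ± 0.25, adjusted p 0.281 by edgeR). STARD4, a soluble sterol carrier, was at 100.6, 52.8 and 80.4 CPM in RPMI plus B27 and at 201.5, 67.7 and 68.1 CPM in DMEM plus fatty acids. Replicate 1 was the highest library in each medium (0.53 ± 0.46, adjusted p 0.589 by edgeR). NPC1L1, the intestinal cholesterol importer, had 3, 3 and 13 counts in RPMI plus B27 and 1 count in each DMEM plus fatty acids library. Those last counts are under the 3 counts (0.0889 to 0.129 CPM) that a count of 0 would allow, so no fold is given. That floor covers counting error only.

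Of the 5 LXR genes, 1 (NR1H2) had the order of DMEM plus fatty acids libraries that most enzymes had. ABCA1, the exporter of cholesterol to lipid-poor apolipoproteins, was at 47.2, 32.2 and 36.5 CPM in RPMI plus B27 and at 58.3, 51.4 and 81.2 CPM in DMEM plus fatty acids. Its groups did not overlap, and 12.8% of all genes were likewise higher without overlap. Replicate 3 of DMEM plus fatty acids, the lowest library for most enzymes, was the highest for ABCA1 (0.72 ± 0.22, adjusted p 0.157 by edgeR and 0.0758 with the replicate block). ABCG1, the exporter to mature lipoproteins, was at 37.6, 17.9 and 13.7 CPM in RPMI plus B27 and at 56.7, 24.9 and 26.4 CPM in DMEM plus fatty acids. It was higher in DMEM plus fatty acids in each pair, by 0.59, 0.48 and 0.94 on the log2 scale, while the groups overlapped because replicate 1 was the highest in each medium. The adjusted p of ABCG1 was 0.507 by edgeR and 0.0519 with the replicate block (0.64 ± 0.45 and 0.67 ± 0.14).

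MYLIP, a ubiquitin ligase for lipoprotein receptors, was at 28.4, 32.04 and 39.4 CPM in RPMI plus B27 and at 49.9, 38.3 and 45.6 CPM in DMEM plus fatty acids. It was higher in each pair, with overlapping groups (0.42 ± 0.17, adjusted p 0.255 by edgeR). The receptor genes NR1H3 (LXR alpha) and NR1H2 (LXR beta) had log2 fold changes of 0.24 ± 0.28 and 0.16 ± 0.12. NR1H3 was low, at 3.65 to 6.59 CPM over the 6 libraries, and its pair ratios were -0.38, 0.40 and 0.82. NR1H2 was at 40.5 to 52.4 CPM. Of the 5 LXR genes, 4 were above 0 in all 3 pairs, against 25.8% of all genes. Of the 19 enzymes 3 were (MVK, TM7SF2 and HSD17B7), and of the other 7 tested members none was.

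**Figure D4:**
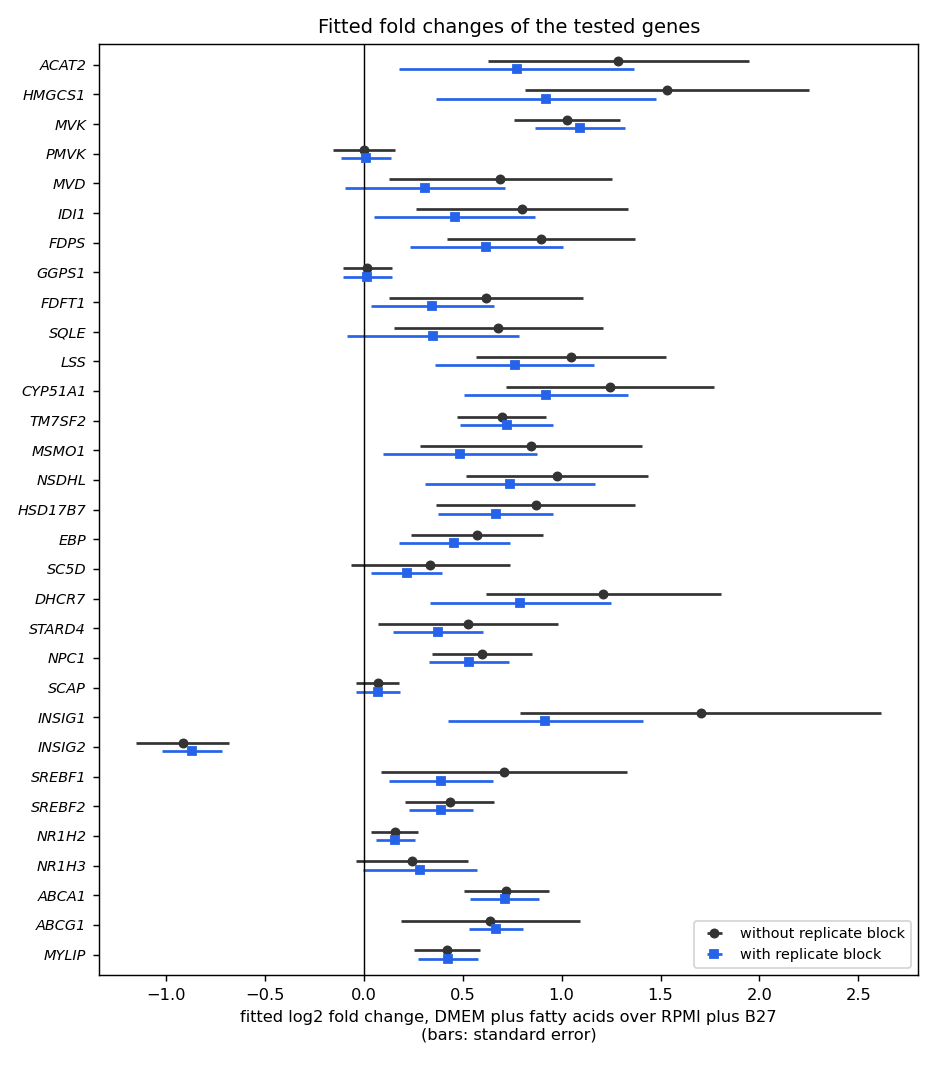
Fitted log2 fold change (x axis, DMEM plus fatty acids relative to RPMI plus B27) of the 31 tested genes (y axis) from the edgeR fits without and with the replicate block; bars are standard errors. The bars are widest for INSIG1 (1.70 ± 0.91) and HMGCS1 (1.53 ± 0.72), and INSIG2 (-0.92 ± 0.24) alone lies below 0.

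Of 57 further genes in 7 lists around the pathway, 54 were tested and none passed in either edgeR fit, while 14 had an unadjusted p under 0.05 without the block, 13 of them with higher values in DMEM plus fatty acids, against 17.7% and 7.7% of all genes. The 11 SREBP-responsive fatty acid genes came closest to the enzymes, with medians of 1.25, 0.22 and -0.13 in pairs 1, 2 and 3, and 9 of 11 fitted values above 0 (median 0.62). LPIN1 (lipin 1, a phosphatidate phosphatase) had 0.94 ± 0.24 with an adjusted p of 0.114 by edgeR, and FASN (fatty acid synthase) had 1.30 ± 0.49 with 0.233. FASN was at 246.0, 157.6 and 218.5 CPM in RPMI plus B27 and at 949.6, 345.4 and 235.1 CPM in DMEM plus fatty acids, again highest in replicate 1.

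Genes that process SREBP or degrade pathway proteins when sterols are high had fold changes centred near 0. Their 11 fitted values had a median of -0.04 with 5 above 0, and the pair medians were 0.05, 0.01 and -0.13. In that list ERLIN2, an endoplasmic reticulum lipid raft protein, had 0.66 ± 0.21. The 14 tested genes of sterol uptake, storage and transfer had a median of 0.02 with 8 above 0, led by NPC2 (the luminal partner of NPC1, 0.42 ± 0.11, adjusted p 0.123 by edgeR) and NCEH1 (a cholesteryl ester hydrolase, 0.60 ± 0.21). Of 4 further LXR partners and targets, SMPDL3A (a phosphodiesterase, 0.96 ± 0.22, adjusted p 0.0910 by edgeR) and LPCAT3 (a lysophospholipid acyltransferase, 0.95 ± 0.24, adjusted p 0.107) had higher values in DMEM plus fatty acids without overlap, as for 12.8% of all genes. The medians of these 4 genes were 0.89, 0.54 and 0.39 in pairs 1, 2 and 3, so pair 1 was the highest, as for the enzymes. The 2 other sterol ring genes, LBR and ERG28, had 0.38 ± 0.27 and 0.30 ± 0.23.

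**Figure D5:**
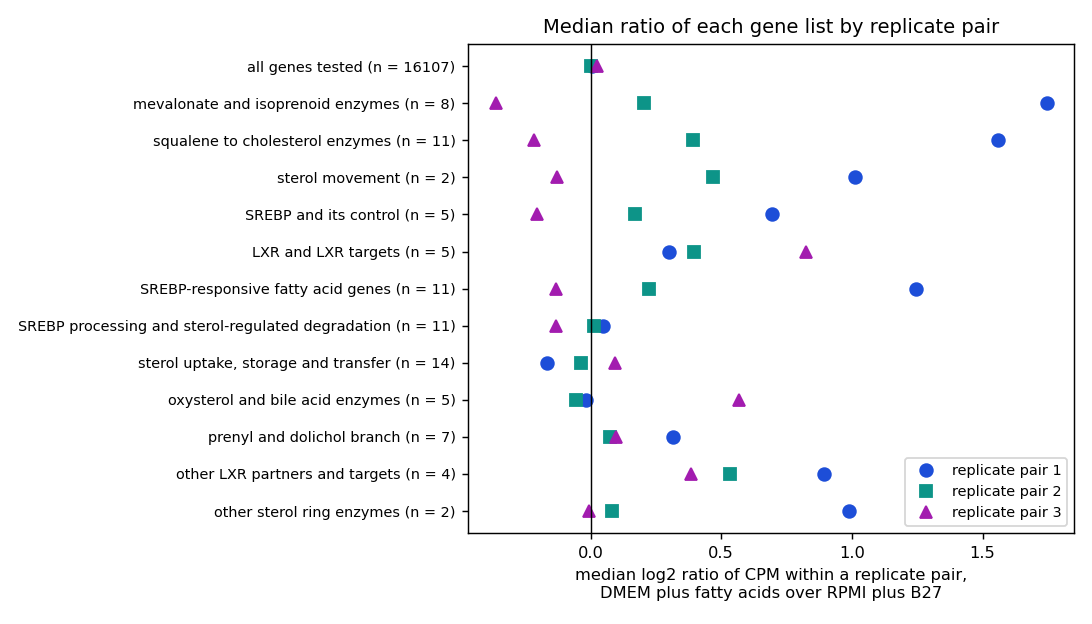
Median log2 ratio of CPM within each replicate pair (x axis, DMEM plus fatty acids relative to RPMI plus B27) for all genes tested, the 5 role groups of members and the 7 further lists (y axis, number of tested genes in parentheses). Pair 3 lies farthest right for the LXR genes (0.82), the oxysterol enzymes (0.57), the sterol uptake list (0.09) and all genes (0.02). Pair 1 does so for every other list, among them the enzymes (1.75 and 1.56), the fatty acid genes (1.25) and the further LXR partners and targets (0.89).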

How the data were processed

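Raw counts per gene symbol were deposited by the authors, 1 file per library, without normalization or pooling of replicates. Per the labels' protocols the library kit keeps strand, and STAR, HTSeq and the build hg38 are named in the submitters' processing notes. Versions, gene annotation and strand setting are not given in the sources used here. Rows naming no gene were left out, and gene rows held 84.4% to 87.2% of each total. Reads aligned to more than 1 place or to overlapping genes were set aside by the counter, so such genes can be undercounted.

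Counts were tested with edgeR 4.0.16 (R 4.3.3): filterByExpr (minimum count 10, minimum total 15; 16107 genes kept), TMM scaling, quasi-likelihood F test over all 6 libraries with medium as the only term, Benjamini-Hochberg over all genes, threshold 0.05. Each standard error is the fold change divided by the root of F. Pair ratios are differences of log2 CPM with a prior count of 2. The fit was tested on simulated data. DESeq2 1.42.0 was an alternative.

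Replicate numbers come from the titles. Deviations from group means correlated at 0.31, 0.43 and 0.37 between same-numbered libraries and at -0.24 to -0.14 between others, so the numbers were taken to pair the libraries. A blocked fit is given for INSIG2, the member whose call it changed, and for some other genes whose calls it did not change or that are markers. No library pair of a medium agreed within sampling noise (chi-square per degree of freedom at least 29.4). The labels call the libraries biological replicates but do not say whether they came from separate differentiations.

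The members and lists were chosen with earlier results of these data known. All members are named. Values per library are given for members that passed in either edgeR fit and otherwise for the 3 with the smallest p in each role group, plus SREBF1. From each further list the 2 genes with the smallest p are named, except 1 gene that is not reported here. SPRING1 was matched to its older deposited symbol through RefSeq synonyms.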

Additional observations from a re-analysis of the deposited data

How the results depend on the processing

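Over 15 alternatives the 31 members gave 465 fitted values, of which 434 kept their direction and their side of the threshold, 4 gained a call (INSIG2 3 times, MVK by DESeq2) and 27 changed sign, none of them called. The number of genes called over all genes was 219, and 1218 by DESeq2, 539 without a count filter, 119 with at least 10 counts in every library and 770 with the replicate block. Leaving out 1 library gave 3 to 131 genes, and leaving out replicate 1, 2 or 3 of both media gave 37, 0 and 0. The number of members called was 0, and 2 by DESeq2, 1 with the replicate block and 0 to 1 when libraries were left out. The members' median was 0.69, 0.46 with the replicate block and 0.08 to 0.98 when libraries were left out. Apart from INSIG2, the block changed no call of a member. Total-count scaling, which moved the median of all genes to 0.12 and that of the members to 0.77, split the calls over all genes into 74 higher and 128 lower, against 47 and 172.

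Leaving out 1 library at a time, fold changes that changed sign ran from -0.027 to 1.28 for MSMO1, -0.055 to 0.062 for GGPS1, -0.066 to 2.22 for INSIG1, -0.078 to 1.21 for IDI1, -0.19 to 1.09 for SQLE, -0.20 to 0.79 for STARD4, -0.22 to 0.98 for FDFT1, -0.24 to 0.63 for SC5D, -0.34 to 1.09 for MVD, -0.38 to 1.11 for SREBF1 and -0.099 to 0.14 for PMVK. The lowest values came without DMEM plus fatty acids replicate 1, except those of GGPS1 and PMVK, which came without RPMI plus B27 replicate 1. Without replicate 1 of both media the sign changed for ACAT2 (-0.022), PMVK (-0.040), IDI1 (-0.078), FDFT1 (-0.10), GGPS1 (-0.12), SQLE (-0.16) and MVD (-0.26). NR1H3 was at -0.030 without replicate 3 of both media, and PMVK at -0.066 without replicate 2 of both. PMVK, at 0.00, was also below 0 under DESeq2 (-0.0064), RLE size factors (-0.0066) and at least 10 counts in every library (-0.0023). Except where a library was left out, the cause was not tested.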

Other observations

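Side branches of the pathway had small fold changes in most of their genes. The 7 tested genes that use isoprenoids for prenylation, dolichol or ubiquinone had fold changes with a median of 0.15 on the log2 scale and 6 above 0, the smallest p values being those of PGGT1B (a subunit of a prenylating enzyme, 0.35 ± 0.12) and COQ2 (a ubiquinone synthesis enzyme, 0.49 ± 0.27). FNTB, of the same list, had a count of 0 in every library. Whether its reads were set aside for overlap with another gene was not checked, so this is not read as absence. Of 5 tested oxysterol and bile acid enzymes, 4 had values above 0 (median 0.07). CYP7B1, an oxysterol hydroxylase, was at 3.09, 15.7 and 14.7 CPM in RPMI plus B27 and at 26.7, 29.6 and 26.9 CPM in DMEM plus fatty acids (1.31 ± 0.51, adjusted p 0.246 by edgeR). RPMI plus B27 replicate 1 stood below all other libraries. The groups did not overlap, as for 12.8% of all genes that were higher in DMEM plus fatty acids in this way. CYP27A1, a sterol hydroxylase, had 0.44 ± 0.33, and CH25H had a count of 0 in every library.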
